A study of Mus musculus with 5 samples.

Results

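The genes of the TNF ligand and receptor superfamily were examined for open chromatin in naïve CD8+ T cells that carry or lack the transcription factors Tcf1 and Lef1. The set was defined by name alone, as every gene of the mm9 mouse annotation whose symbol begins with Tnfsf or Tnfrsf, together with *Cd27*, *Cd40*, *Cd40lg*, *Cd70*, *Fas*, *Fasl*, *Tnf*, *Lta* and *Ltb*, which gave 40 of 22225 protein-coding genes. For each gene, all DNase-seq peaks were taken whose summit lay in the gene body or within 20 kb of it, which gave 111 of the 31116 peaks deposited for WT cells and 88 of the 25525 deposited for dKO cells. Of these, 101 WT and 84 dKO peaks met the criteria the study used for a chromatin accessible (ChrAcc) site, namely at least 4-fold enrichment over the local background, p under 1e-05 and q under 0.05, and these are called sites here.

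DNase-seq reads out open chromatin through the short pieces of DNA that the enzyme DNase I sets free there. Cells came from hCD2-Cre+ Rosa26-GFP mice that were either Tcf7+/+ Lef1+/+ (WT, 3 replicates) or Tcf7 fl/fl Lef1 fl/fl (dKO, 2 replicates), of both sexes and 6 to 12 weeks of age. The Cre is driven by the human CD2 promoter, is carried by both genotypes and acts mainly in mature peripheral T cells, so deletion is largely post-thymic, and GFP marks the cells in which Cre was active. Sorted splenic cells were GFP+ TCRbeta+ CD8+ with high CD62L and low to intermediate CD44, the state of naïve cells.

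TNF superfamily ligands are trimeric proteins, most of them anchored in the membrane, that cluster their receptors on a neighbouring cell. One group of receptors recruits TRAF adaptors and feeds NF-kappaB and survival signals, as the costimulatory receptors CD27, OX40, 4-1BB, GITR and TNFR2 do in T cells. Another group carries a death domain and can start apoptosis through FADD and caspase-8, as Fas does. Naïve CD8+ T cells display CD27 and TNFR2, while Fas ligand and many of the costimulatory molecules are known to appear after activation.

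The sequences below show the DNA at which the sites named in the text sit. They were read from the mm9 genome and are written 5′ to 3′ on the stated strand. The first set holds every match to ATCAAAG, the core of the motif that Tcf1 and Lef1 bind, within 100 bp of a summit at these genes, with 29 bases on each side. Capitals mark the core, and also the Runx core TGTGGTT next to it in the *Tnfrsf25* sequence and the AP-1 motif TGAGTCA in the *Tnfrsf26* sequence. None of these matches overlap.
Tnfrsf19 upstream site, WT list only, chr14:61675520-61675584, minus strand: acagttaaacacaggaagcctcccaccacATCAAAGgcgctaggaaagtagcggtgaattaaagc
Tnfrsf1a intron 1 site, WT list only, chr6:125305580-125305644, plus strand: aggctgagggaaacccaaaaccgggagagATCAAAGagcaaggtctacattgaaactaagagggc
Fasl upstream site, in both lists, chr1:163734689-163734753, plus strand: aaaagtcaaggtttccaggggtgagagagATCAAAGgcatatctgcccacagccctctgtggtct
Tnfrsf1b intron 1 site, in both lists, chr4:144831079-144831143, plus strand: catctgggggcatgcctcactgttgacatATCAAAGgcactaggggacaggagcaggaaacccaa
Tnfrsf25 upstream site, in both lists, chr4:151470175-151470239, minus strand: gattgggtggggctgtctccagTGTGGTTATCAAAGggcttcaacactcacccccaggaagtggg
Tnfrsf26 intron 1 site, in both lists, chr7:150811215-150811279, minus strand: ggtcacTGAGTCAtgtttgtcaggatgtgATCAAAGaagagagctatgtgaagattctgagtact

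The second set holds 3 sites found in the WT list alone, which were the 3 of highest fold enrichment that touched no exon and carried no core, and the promoter sites of *Ltb* and *Fasl*, of which one had fewer and one more dKO fragments after scaling. Capitals in the *Ltb* promoter mark a kappaB motif, which is the reverse complement of GGACTTTCC. The other 4 sequences contain none of the 5 motifs searched.
Tnfrsf4 upstream site, WT list only, chr4:155378403-155378523, plus strand: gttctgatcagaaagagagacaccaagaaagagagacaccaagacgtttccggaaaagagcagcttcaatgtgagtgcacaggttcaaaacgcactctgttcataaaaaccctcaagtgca
Ltb upstream site, WT list only, chr17:35315591-35315711, plus strand: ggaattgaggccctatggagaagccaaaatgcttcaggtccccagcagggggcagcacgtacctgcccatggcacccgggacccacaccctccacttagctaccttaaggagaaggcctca
Fasl downstream site, WT list only, chr1:163705457-163705577, plus strand: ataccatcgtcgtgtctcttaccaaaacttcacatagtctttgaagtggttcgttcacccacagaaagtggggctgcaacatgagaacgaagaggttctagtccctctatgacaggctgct
Ltb promoter site, in both lists, chr17:35331220-35331383, plus strand: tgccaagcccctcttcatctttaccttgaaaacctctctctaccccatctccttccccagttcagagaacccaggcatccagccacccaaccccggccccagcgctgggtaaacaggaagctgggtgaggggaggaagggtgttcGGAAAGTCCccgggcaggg
Fasl promoter site, in both lists, chr1:163718627-163718734, minus strand: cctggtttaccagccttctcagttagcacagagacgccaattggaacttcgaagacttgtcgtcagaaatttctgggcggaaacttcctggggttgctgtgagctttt

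The replicates of each genotype were pooled before the authors called peaks, so every value here belongs to 1 WT pool of 83923734 fragments or 1 dKO pool of 62242963 fragments. No spread between replicates exists in such lists, no test between the genotypes was possible from them, and differences describe these pools. The study itself counted reads per replicate at its sites and tested them between the genotypes. That measure differs from the presence in a list used here. The pileup is the number of fragments over a summit. A site's percentile is the rank of its fold enrichment among all sites of its own list (28472 in WT and 24363 in dKO), with 100 for the strongest. The sorted cell type was reflected at promoters. All 9 genes of a list of T and CD8 T cell markers had a WT site within 1 kb of a transcription start site (TSS). In dKO cells 8 had a site there, *Cd3d* being the exception. None of 5 B cell or 3 NK cell marker genes had a promoter site in either list. Of 5 myeloid and dendritic marker genes, 1, *Itgam*, had one in WT and none had one in dKO. Away from promoters these loci were not closed. In the gene body or within 20 kb, the B cell genes held 13 WT and 11 dKO sites, the NK cell genes 12 and 11, and the myeloid and dendritic genes 6 and 3. The T and CD8 T cell genes held 63 and 55. The part of other cells in the results was not tested.

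Accessible sites were found at most of the family. At least 1 site lay at 33 of the 40 genes in WT (82.5%) and at 28 in dKO cells (70.0%), compared with 66.2% and 63.3% of all protein-coding genes. *Cd40*, *Cd70*, *Tnfsf13b*, *Tnfsf15*, *Tnfsf18*, *Tnfrsf11a* and *Tnfrsf11b* had no site in either list. These include the ligands CD70 and BAFF, the receptor CD40 of B and dendritic cells, and RANK and osteoprotegerin of bone turnover. A site within 1 kb of the gene's own TSS was present for 19 genes in WT (47.5%) and 15 in dKO cells (37.5%), close to the 45.0% and 41.9% of all protein-coding genes, and 14 genes had one in both. Most sites of the family lay away from its promoters, since 21 of 101 WT and 17 of 84 dKO sites were within 1 kb of a TSS of the family, and 13 in each list lay at the promoter of another gene alone.

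The plot of site counts by gene shows where they gathered. *Tnfrsf1b*, encoding TNFR2, had the most sites, with 12 in WT and 10 in dKO cells. *Fasl* followed with 9 and 8, and *Tnfrsf9*, encoding 4-1BB, with 9 and 7. Counts were lower in dKO cells at 17 of the 33 genes with a site (51.5%), higher at 7 (21.2%) and equal at 9. Over all 14958 protein-coding genes with a site in either list the counts were lower in dKO for 39.6% and higher for 14.3%.

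**Figure D1:**
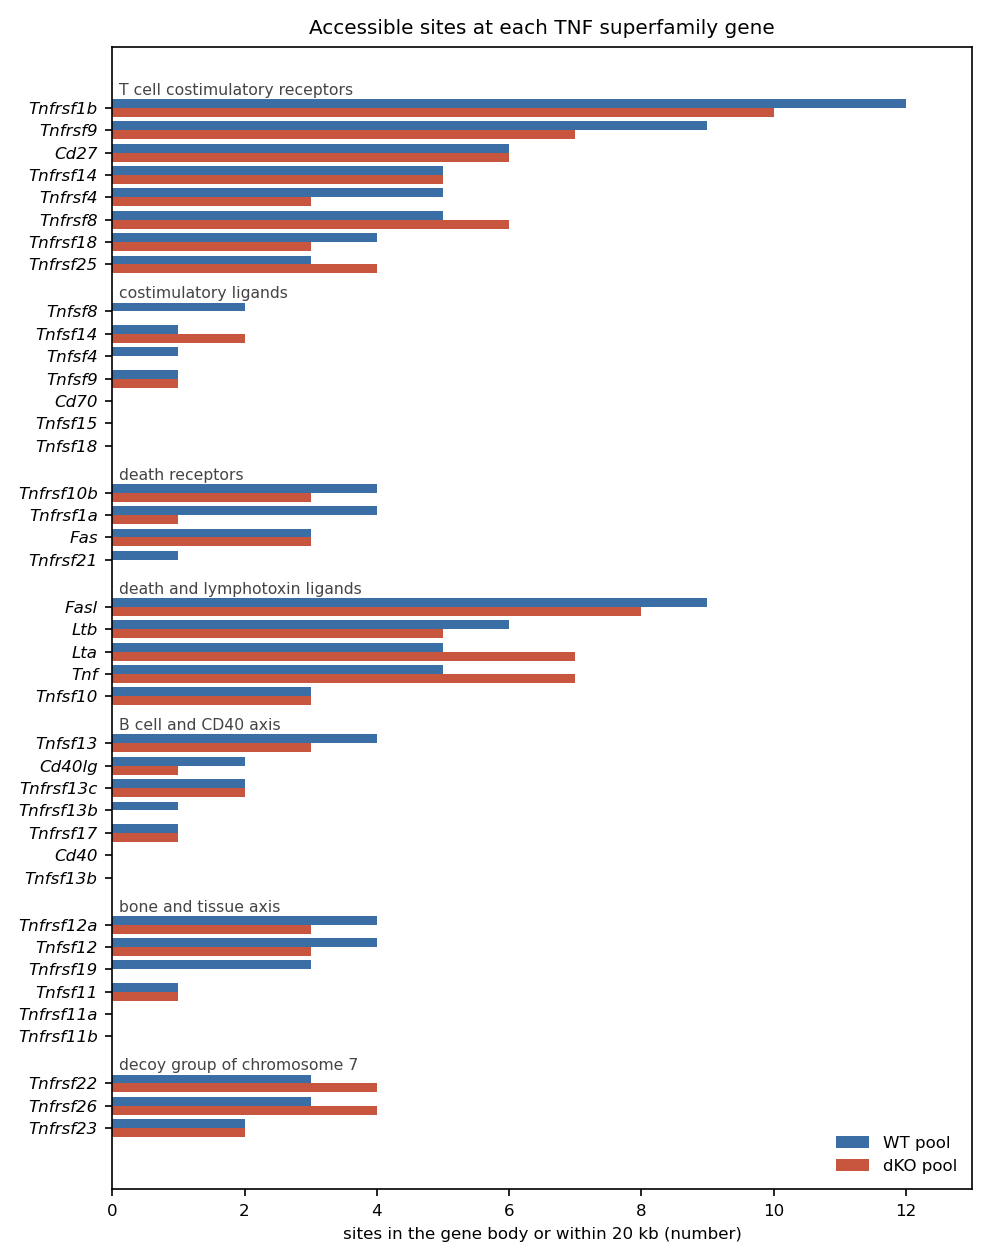
Number of sites in the gene body or within 20 kb (horizontal axis) for each of the 40 genes, grouped by role, in the WT pool (blue) and the dKO pool (red). *Tnfrsf1b* has 12 and 10 sites, *Tnfrsf19* has 3 WT sites and no dKO site, and 7 genes have none; a site near several genes is counted at each.

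Of the 101 WT sites, 24 overlapped no dKO site (23.8%, 95% Wilson interval 16.5 to 32.9%), beside 27.6% of all WT sites. Of the 84 dKO sites, 7 overlapped no WT site (8.33%, interval 4.09 to 16.2%), beside 14.4% of all dKO sites. Both shares were below those of the whole lists under these criteria, but not under every alternative setting. The intervals cover counting error only, and overlapping sites and neighbouring genes are not independent. Lists of equal length gave other counts. When each list was cut to its 20000 peaks of highest -log10 p, 13 of 69 WT sites at these genes were WT-only (18.8%, beside 19.7% of all) and 15 of 71 dKO sites were dKO-only (21.1%, beside 18.9%). Sites found in 1 list were weak, with a median percentile of 19.5 for WT-only and 16.8 for dKO-only sites, compared with 53.4 and 51.6 for the shared ones. The corresponding medians over all sites in 1 list were 24.3 and 18.0.

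Depth limits what a missing site can show. A WT-only site as accessible in the dKO pool would have been expected to show a known number of fragments there, scaled by depth and by the median ratio of all shared sites, and the local background sets the number that the criteria ask for. The expected number fell short of the required one at 6 of the 24 WT-only sites, and it was at least 1.5 times the required one at 8. At the 7 dKO-only sites the expected WT number reached the required one in every case and was at least 1.5 times it in 4. Absence from a list is therefore not absence of signal, and a site weak in 1 pool may lie just below the criteria in the other. The expected numbers, here and below, start from the pileup of the pool in which the site was called. They carry no counting error, and choosing sites called in 1 pool alone can raise them. Whether accessibility differed at these sites was not tested here. With its counts per replicate, the paper reports reduced accessibility in dKO cells at sites downstream of *Fasl* and in intron sequence of *Cd40lg*. Whether those are the WT-only sites described below was not checked.

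**Figure D2:**
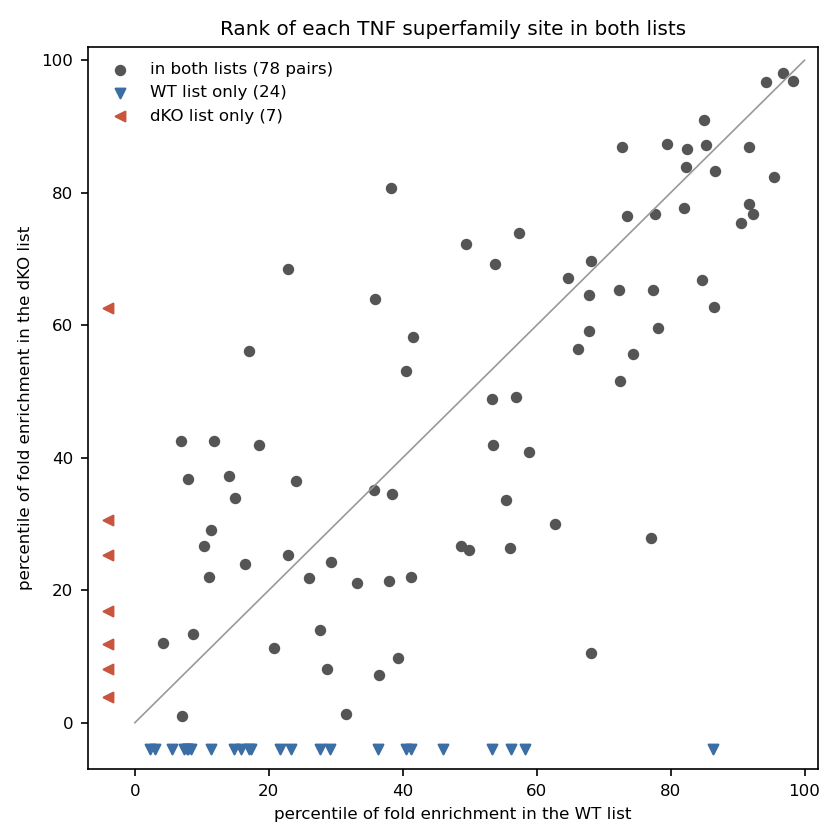
Percentile of fold enrichment in the WT list (horizontal) against that in the dKO list (vertical) for 78 overlapping pairs of sites; triangles at the margins are the 24 WT-only and 7 dKO-only sites, and the line marks equal rank. The median WT-only site stands at percentile 19.5, and the highest, at *Tnfrsf4*, at 86.3.

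Where sites overlapped, their pileups were compared as the log2 ratio of dKO to WT fragments, each divided by the fragments of its pool, centred on the median of all 20937 shared pairs, which was −0.14 before centring. The 78 pairs at the family had a median of −0.08, with quartiles of −0.25 and 0.24, and the quartiles over all shared pairs were −0.23 and 0.25. Only 1 pair (1.28%, beside 1.11% of all shared pairs) was at least 2-fold lower in dKO cells and 0 were at least 2-fold higher, beside 1.67% of all. That pair lay 8.52 kb upstream of *Tnfrsf14*, encoding HVEM, where a WT site of 99 fragments overlapped 2 separate dKO sites of 53 and 24 fragments, and with each WT site paired to the nearest summit no pair passed 2-fold. Counting intervals of the ratio, which are exact 95% intervals of the fragment numbers and contain no replicate spread, lay above 0 for 11 pairs (14.1%, beside 7.79% of all pairs) and below 0 for 7 (8.97%, beside 5.98%). The sites with such intervals were singled out below after their values were seen. Pairs that share a site are not independent. A single dKO site of *Tnfrsf1b* counts in 2 of the 11 pairs, and the *Tnfrsf14* pair above, whose summits lie 379 bp apart, is among the 7.

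**Figure D3:**
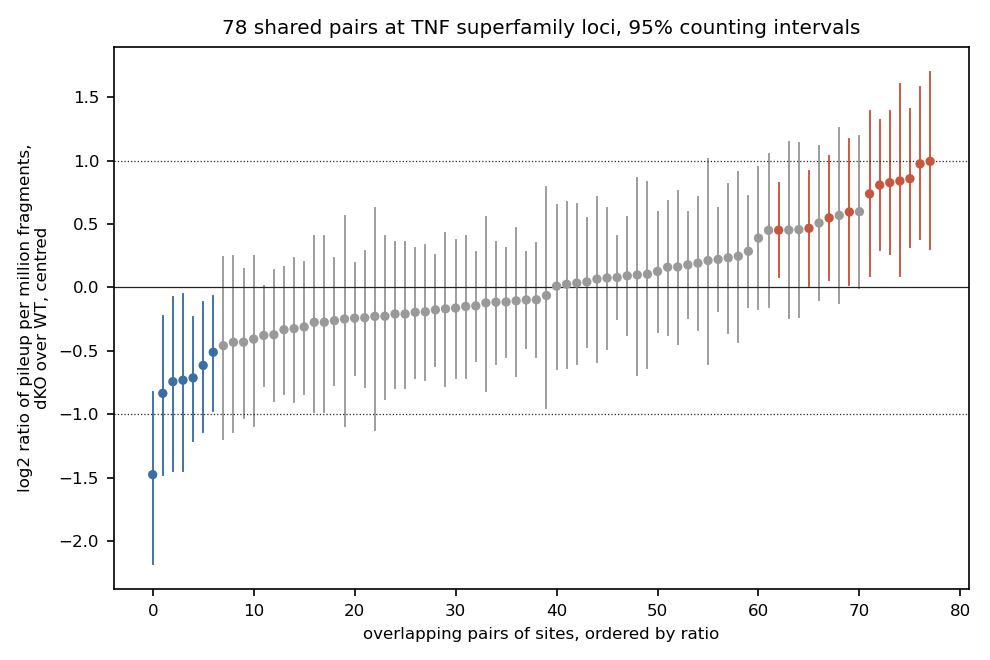
Centred log2 ratio of dKO to WT pileup scaled to pool size (vertical) for the 78 shared pairs in order of the ratio, with exact 95% counting intervals. Red pairs (11) lie above 0 with their whole interval and blue pairs (7) below it, and dotted lines mark 2-fold.

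Among the T cell costimulatory receptors, 8 genes held 43 WT and 39 dKO sites. Of these, 7 were WT-only and 3 dKO-only, beside 27.6% and 14.4% over the whole lists. The strongest WT-only site of the whole family lay 9.49 kb upstream of *Tnfrsf4*, which encodes OX40 (chr4:155378291-155378536, shown above). It had 74 fragments in WT and ranked at percentile 86.3, no peak of the deposited dKO list overlapped it, and equal accessibility would have given 49.9 fragments in dKO cells where 16 met the criteria. It was also WT-only among the 20000 strongest peaks of each list and at 8-fold enrichment. The next site of *Tnfrsf4*, shared with *Tnfrsf18* (GITR) and 4.91 kb downstream of *Tnfrsf4*, was WT-only with 43 fragments at percentile 15.8, and a dKO peak below the criteria overlapped it. Neither gene had a promoter site in either list.

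The gene *Tnfrsf1b* differed from site to site in the direction of the ratio, as the locus maps show. Within intron 1, 10.7 kb from the start, a WT site of 124 fragments and a dKO site of 51 fragments gave a centred log2 ratio of −0.71 (interval −1.21 to −0.23), and the percentile was 56.1 in WT and 26.4 in dKO. Sites 17.5 and 16.9 kb from the start, also in intron 1, went the other way. The first had 54 WT and 66 dKO fragments (log2 ratio 0.86, interval 0.32 to 1.40) and stood at percentile 22.9 among WT and 68.5 among dKO sites. The second had 43 and 57 fragments (0.97, interval 0.38 to 1.58) and ranked at 17.0 and 56.2.

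Closer to the start of *Tnfrsf1b*, at 6.0 and 5.71 kb in intron 1, WT sites of 73 and 61 fragments faced a single dKO site of 72 fragments, with log2 ratios of 0.55 (0.06 to 1.04) and 0.81 (0.30 to 1.32). The second of these WT sites holds the ATCAAAG shown above. The summit of the dKO site lies 293 bp from the summit of that WT site, and the core is not within 100 bp of the dKO summit. Upstream, 7.82 kb from the start of *Tnfrsf1b* and 12.4 kb beyond the end of *Tnfrsf8* (CD30), the site with the most fragments of this locus in WT had 131 in WT and 62 in dKO cells (−0.51, interval −0.97 to −0.06). The strongest dKO-only site of the family lay in the 3′ UTR of *Tnfrsf1b*, in exon 10 (chr4:144804442-144804553), with 62 fragments at percentile 62.6. Equal accessibility would have given 91.9 WT fragments there, and 33 met the criteria. The WT-only sites of *Tnfrsf1b*, in exon 5 (60 fragments, percentile 23.3) and 13.2 kb downstream (25 fragments, 3.01), were weaker by rank, and no site lay within 1 kb of a TSS of *Tnfrsf1b* in either list.

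**Figure D4:**
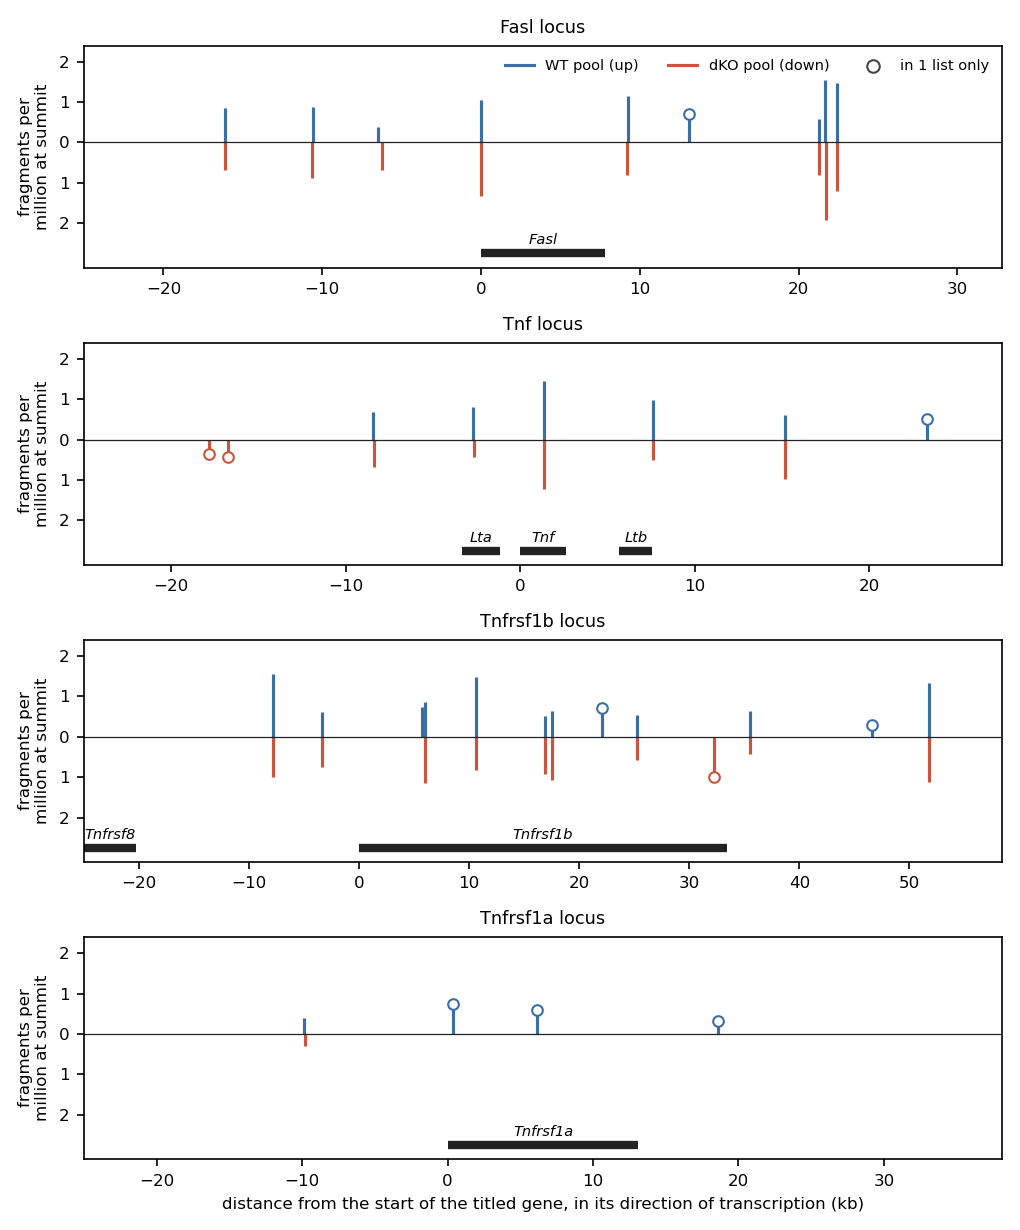
Pileup at the summit of each site, scaled to the fragments of its pool, WT upward and dKO downward (vertical), against the distance from the start of the titled gene in its direction of transcription in kb (horizontal); black bars are genes of the family and open circles are sites in 1 list only. *Tnfrsf1a* shows 3 WT-only sites, *Tnf* has 2 dKO-only sites upstream, and at *Tnfrsf1b* some sites are taller in WT and others in dKO.

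*Tnfrsf9* (4-1BB), an inducible costimulator of CD8+ T cells, had 3 promoter sites in each list. The strongest, at percentile 53.7 in WT (101 fragments) and 69.3 in dKO (83 fragments), lies at a start that it shares with the divergent gene *Park7*. In intron 1, 4.41 kb from the main start, 40 WT and 45 dKO fragments gave a log2 ratio of 0.74 (0.09 to 1.39). A pair of sites in intron 7, with 32 and 37 fragments at percentiles 17.4 and 27.6, was WT-only.

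*Cd27*, whose product is a costimulatory receptor already present on naïve cells, kept 6 sites in each list and all were shared. Its own promoter was among the weakest of them, with 52 WT fragments at percentile 7.08 and 29 dKO fragments at percentile 1.0, and its strongest site, 10.3 kb downstream, ranked at 82.1 and 77.7. The intervals of all 6 ratios of *Cd27* held 0.

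*Tnfrsf14*, encoding HVEM, had a promoter site of 37 WT and 21 dKO fragments (percentiles 27.7 and 14.1) and a WT-only site 14.5 kb upstream of 42 fragments (29.1). Its strongest site, 17.6 kb downstream, had 117 and 92 fragments and ranked at 94.2 and 96.7, among the highest of the family in both pools. *Tnfrsf8* had a dKO-only site in intron 10 of 19 fragments (percentile 8.18), and its strongest dKO site, in intron 8, had 74 WT and 57 dKO fragments (72.7 and 86.9). *Tnfrsf25* (DR3), which binds TL1A, had a weak dKO-only site 14.6 kb downstream of 23 fragments (3.84). Its strongest site, at the promoter of *Plekhg5*, is the one in which a Runx core directly precedes the ATCAAAG shown above, with 50 WT and 31 dKO fragments at percentiles 58.9 and 40.9. Downstream of *Tnfrsf18* by 4.81 kb, a site also within reach of *Tnfrsf4* had 53 WT and 54 dKO fragments (0.60, interval 0.02 to 1.17).

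The costimulatory ligands, which are carried mainly by antigen-presenting and activated cells, had a site at 4 of 7 genes in WT and 2 in dKO cells. The shares over all protein-coding genes were 66.2% and 63.3%. These ligands held 5 WT and 3 dKO sites in all, and 3 of the genes (*Cd70*, *Tnfsf15* and *Tnfsf18*) had none. Of the sites, 3 were WT-only and 1 dKO-only, beside 27.6% and 14.4% over the whole lists. These counts rest on few genes. Both sites of *Tnfsf8* (CD30 ligand) were WT-only, at its promoter with 39 fragments (percentile 17.0) and in intron 1 with 31 fragments (2.29), and so was the single site of *Tnfsf4* (OX40 ligand), in intron 1 with 30 fragments (14.8). The depth of the dKO pool left the intron 1 site of *Tnfsf8* below the required number at equal accessibility. The promoter site of *Tnfsf14* (LIGHT) was in both lists, with 31 WT and 20 dKO fragments at percentiles 20.8 and 11.3, and a dKO-only site of 25 fragments (25.3) lay 15.3 kb upstream. The only strong site of the group stood 8.62 kb upstream of *Tnfsf9* (4-1BB ligand), with 92 WT and 50 dKO fragments at percentiles 91.7 and 78.3.

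Death receptors accounted for 12 WT and 7 dKO sites. Of these, 5 were WT-only, beside 27.6% of all WT sites, and 0 dKO-only, beside 14.4% of all dKO sites. *Tnfrsf1a*, encoding TNFR1, held 3 of the 5. Its promoter site, 15 bp upstream of the start of the main transcript (chr6:125299641-125299790), had 62 fragments at percentile 36.4 in WT and no dKO counterpart, although 41.8 fragments would have been expected at equal accessibility and 27 met the criteria. A WT-only site in intron 1 with 49 fragments (21.6) contains the ATCAAAG shown above, and another, 5.49 kb downstream, had 26 fragments (5.54), where the expected dKO number of 17.5 was under the 18 required. The single dKO site of *Tnfrsf1a*, 10.2 kb upstream, had 19 fragments (8.18) beside 33 in WT (28.7).

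*Fas* itself had 3 sites in each list, all shared. The site in intron 1, 16.3 kb from the start, had 64 WT and 26 dKO fragments (−0.73, interval −1.45 to −0.05) and stood at percentile 77.1 among WT and 27.9 among dKO sites. The promoter had 56 and 28 fragments (−0.43, interval −1.14 to 0.25), an interval that holds 0. *Tnfrsf10b*, the mouse TRAIL receptor, had its strongest site in intron 3, with 114 WT and 87 dKO fragments at percentiles 84.9 and 91.0, and a WT-only site 19.8 kb downstream of 32 fragments (11.4). *Tnfrsf21* (DR6) had 1 site, at its promoter, which was WT-only with 24 fragments (8.31).

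The death and lymphotoxin ligands held 18 sites in each list. Of these, 2 were WT-only and 2 dKO-only, beside 27.6% and 14.4% over the whole lists. The difference between these groups was not tested. *Fasl*, whose product kills Fas-bearing cells, had 9 WT sites, and 8 of them were shared. The promoter site, shown above, had 88 WT and 82 dKO fragments (0.47, interval 0.01 to 0.92) at percentiles 82.5 and 86.7, and it was the strongest *Fasl* site in WT. In dKO cells the strongest was 13.9 kb downstream, with 129 WT and 119 dKO fragments (0.45, interval 0.08 to 0.82). At 6.50 kb upstream the ratio was the highest of the family, with 32 WT and 43 dKO fragments (0.99, interval 0.30 to 1.70) and percentiles of 7.99 and 36.7, although the summits of that pair lie 267 bp apart. The site with the ATCAAAG, 16.1 kb upstream, had 72 and 42 fragments at percentiles 55.3 and 33.6. The WT-only site downstream of *Fasl* had 60 fragments, and 40.5 would have been expected in dKO cells where 25 met the criteria.

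*Lta*, *Tnf* and *Ltb*, which encode the secreted and membrane lymphotoxins and TNF, lie side by side on chromosome 17, so most of their sites belong to all 3. The promoter of *Ltb*, with the kappaB motif shown above, had 82 WT and 31 dKO fragments (−0.84, interval −1.48 to −0.22) and stood at percentile 62.8 among WT and 30.0 among dKO sites. The *Lta* site in intron 1, within 1 kb of its TSS, had 67 and 27 fragments (−0.74, interval −1.44 to −0.08) and ranked at 36.4 and 7.24. The site 7.62 kb upstream of *Ltb* went the other way, with 51 and 61 fragments (0.83, interval 0.27 to 1.39) and percentiles of 38.3 and 80.7. *Tnf* had no promoter site in either list, and the strongest WT site of the cluster, in intron 3 of *Tnf*, had 122 WT and 76 dKO fragments at percentiles 73.4 and 76.4.

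Upstream of *Lta* by 13.4 and 14.5 kb, dKO-only sites of 27 and 22 fragments (percentiles 30.6 and 16.8) each overlapped a deposited WT peak that missed the criteria. A WT-only site lay 15.7 kb upstream of *Ltb*, with 42 fragments at percentile 46.0, where 28.3 dKO fragments would have been expected and 16 met the criteria. *Tnfsf10* (TRAIL) had 3 shared sites. The site in intron 1, 5.73 kb from the start, had 29 WT and 35 dKO fragments (0.84, interval 0.09 to 1.60), whereas the ratios of the promoter (0.01, interval −0.64 to 0.65) and of the strong site 6.07 kb downstream (0.04, interval −0.47 to 0.55) were near 0.

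At the B cell and CD40 axis, 7 genes held 10 WT and 7 dKO sites. *Cd40lg*, the ligand through which helper T cells license B cells and dendritic cells, lies on the X chromosome and had a shared site 15.7 kb upstream, with 49 WT and 47 dKO fragments (0.51, interval −0.10 to 1.12). The median ratio of the 431 shared X chromosome pairs was 0.02. Its site in intron 4 was WT-only with 39 fragments, and 26.3 would have been expected in dKO cells where 16 met the criteria. *Tnfrsf13c* (BAFF receptor) had a promoter site of 39 WT and 36 dKO fragments (40.5 and 53.0) and a stronger site 12.5 kb upstream of 83 and 49 fragments (92.3 and 76.9). *Tnfrsf13b* (TACI) had 1 weak WT-only site, at the start of a short transcript inside intron 3, of 25 fragments (7.77), which the depth of the dKO pool could have missed. *Tnfrsf17* (BCMA) had a site at the promoter of its neighbour *Snx29*, with 84 and 48 fragments. Near *Tnfsf13* (APRIL) and *Tnfsf12* (TWEAK), a WT-only site of 65 fragments (53.4) in the last exon of *Tnfsf13* and a shared site of 109 WT and 48 dKO fragments (−0.61, interval −1.14 to −0.11) were both at the promoter of *Senp3*.

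In the bone and tissue axis, 6 genes held 12 WT and 7 dKO sites. Of the WT sites, 5 were WT-only, beside 27.6% of all WT sites. The 4 WT and 3 dKO sites of *Tnfsf12*, 1 of them WT-only, were also counted above at *Tnfsf13*. All of them lie at the promoters of *Eif4a1* or *Senp3*. *Tnfrsf19* (TROY), a receptor known from neural and epithelial tissue, had 3 WT-only sites, and the deposited dKO list held no peak there. The first lay in the 5′ UTR, 346 bp from the start, with 60 fragments at percentile 58.3. The second, 9.85 kb upstream, had 59 fragments at percentile 56.2 and holds the ATCAAAG shown above, centred 11 bp from the summit. For these sites, 40.5 and 39.8 dKO fragments would have been expected and 20 met the criteria at each. The weakest, 10.2 kb upstream, had 30 fragments (7.29), too few for the dKO depth. *Tnfsf11* (RANKL) had its single site in both lists, with 32 WT and 25 dKO fragments at percentiles 22.9 and 25.3. *Tnfrsf12a* (the TWEAK receptor) had a promoter site of 98 and 61 fragments (53.4 and 48.9) and a WT-only site 10.8 kb downstream of 24 fragments (7.95). Its strongest neighbour site, at the shared promoter of *Hcfc1r1* and *Thoc6*, had 191 and 136 fragments (96.8 and 98.1).

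On chromosome 7, *Tnfrsf22* and *Tnfrsf23*, which encode receptors that bind TRAIL without a death signal, had promoter sites in both lists, and *Tnfrsf26* lies beside them. The promoter of *Tnfrsf22* had 90 WT and 53 dKO fragments at percentiles 95.4 and 82.3, which made it the family's own promoter of highest rank in WT. That of *Tnfrsf23* had 69 and 49 fragments (77.6 and 76.9). Within 1 kb of the start of *Tnfrsf26*, a site of 30 fragments was dKO-only (11.9), and its intron 1 site with the ATCAAAG had 76 and 38 fragments (49.9 and 26.1). The strongest site by fold enrichment in WT near any gene of the family, 7.54 kb downstream of *Tnfrsf26*, was the promoter of *Cars*, with 160 and 83 fragments (98.2 and 96.9).

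Across the family's promoters, 5 of the 19 genes with a WT promoter site had none in dKO cells (26.3%, beside 8.59% of the 10002 protein-coding genes with one). They were *Tnfrsf1a*, *Tnfrsf19*, *Tnfrsf21*, *Tnfrsf13b* and *Tnfsf8*, of which 3 stood under percentile 20 in WT. At *Tnfrsf13b* the expected dKO number of 16.9 was under the 17 required, and at *Tnfrsf21* 16.2 barely reached the 16 required. At the promoters of *Tnfrsf1a*, *Tnfrsf19* and *Tnfsf8* the expected number exceeded the required one. Conversely 1 of 15 with a dKO promoter site, *Tnfrsf26*, had none in WT (6.67%, beside 1.73%). These shares rest on few genes and on presence in a list, and the genes compared were not matched for strength of site. No test between the genotypes was possible with these lists.

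The ATCAAAG core lay within 100 bp of the summit at 6 of 101 WT sites (5.94%, Wilson interval 2.75 to 12.4%), compared with 3.81% of all WT sites. Among the WT-only sites it was present at 2 of 24 (8.33%, interval 2.32 to 25.8%), compared with 6.98% of all WT-only sites, and among dKO sites at 3 of 84 (3.57%) compared with 2.42%. Motifs were searched on both strands. The kappaB motif GGACTTTCC was at 2 WT sites (1.98%, beside 0.302% of all WT sites), both in the *Tnf*, *Lta* and *Ltb* cluster. The AP-1 motif TGAGTCA was at 10 WT sites (9.90%, beside 4.50%), the Runx core TGTGGTT at 13 (12.9%, beside 9.67%) and the Ets core CCGGAAG at 7 (6.93%, beside 9.0%). All 10 WT sites with an AP-1 motif and all 13 with a Runx core were shared, and 4.82% and 10.2% of all WT-only sites held these motifs, inside the interval of 0 to 13.8% for 0 of 24. Of the 7 dKO-only sites, 1, upstream of *Lta*, held both. These are letter matches and do not show binding.

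The adaptors and kinases behind the receptors were described in the same way. Of 21 signalling genes, 17 had a promoter site in each list (81.0%), beside 45.0% of all protein-coding genes in WT and 41.9% in dKO cells. Among the 17 were *Traf2*, *Traf5*, *Traf6*, *Ripk1*, *Casp8* and *Tnfaip3*. The 21 genes held 85 WT and 59 dKO sites, with a site near several of them counted at each. Of these, 28 WT sites (32.9%, beside the 27.6% above) and 2 dKO sites (3.39%, beside 14.4%) were in 1 list only. The shares of the whole lists count each site once. The promoter of *Traf2* stood at percentile 84.2 among WT and 82.6 among dKO sites, and that of *Tnfaip3*, an inhibitor of NF-kappaB, at 79.3 and 72.8. *Traf1* and *Tradd* each had 4 WT-only sites, and both dKO-only sites of the list were at *Cflar*, which encodes an inhibitor of caspase-8. Of 6 superfamily genes with other names (*Ltbr*, *Ngfr*, *Relt*, *Eda*, *Edar* and *Eda2r*), only *Relt* had sites, 3 in each list.

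The 20 kb limit decided which sites were included. The last sites inside it were those of *Tnfrsf25*, 19.8 kb from the gene in WT (50 fragments, percentile 58.9), and of *Tnfrsf10b* at 19.8 kb (32 fragments, 11.4). The first outside was 20.1 kb from *Tnfrsf13c*, with 69 WT and 47 dKO fragments (73.1 and 73.9).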

How the data were processed

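DNase-seq of 3 WT and 2 dKO replicates was analysed from 1 deposited peak list per genotype. Per the labels and file headers, the authors aligned reads to mm9 with Bowtie2 2.2.5, pooled replicates and called peaks with MACS2 2.1.1 in paired-end mode without a control, at p under 1e-05. The pileup in the deposited files is a coverage signal, the fragments over the summit, not scaled to depth. The deposited fold enrichment sets the pileup against MACS2's local background as a ratio, and the deposited -log10 p and q belong to MACS2's test of each pool alone. The number of per-sample columns left unused was 0. Both headers give a fragment total that is exactly double the fragments kept after filtering, and they name each pool's alignment file together with a sorted copy of it.

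Gene bodies, TSSs, introns and exons came from the gencode vM1 annotation, and sequences from the NCBIM37 (mm9) genome with pysam 0.24.0 and samtools 1.23.1. Distances run from the start of transcript 001, or the longest transcript where none has that name, or from the gene's end for downstream sites. Sites overlapped where they shared at least 1 bp. Pileups were divided by 83923734 WT or 62242963 dKO fragments. Overlap, motif and interval steps were tested on simulated data. Named sites were those in 1 list only, shared sites past 2-fold, promoter sites that are the strongest of their gene and the 10 highest fold enrichments of each list, and others named were chosen after their values were seen. The genes and lists were chosen with earlier results of these data known. Python 3.11.15, numpy 2.4.6, pandas 2.3.3, scipy 1.17.1 and matplotlib 3.10.9 were used. The result of 1 further marker list is not reported here.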

Additional observations from a re-analysis of the deposited data

How the results depend on the processing

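Of 53 values under alternative settings, 30 stayed within 1.5 times the reported one and 23 did not. At 8-fold enrichment there were 47 WT and 42 dKO sites, 12 WT-only sites (25.5%, beside 25.9% of all WT sites), 7 dKO-only sites (16.7%, beside 14.6%), 8 and 6 genes with a WT or dKO promoter site and 0 shared pairs past 2-fold. With q under 1e-10 there were 4 dKO-only sites (5.48%, beside 11.1%) and 0 pairs past 2-fold. Among the 20000 strongest peaks of each list there were 13 WT-only (18.8%, beside 19.7%) and 15 dKO-only sites (21.1%, beside 18.9%), 12 genes with a WT promoter site and 0 pairs past 2-fold, and 10 of the 24 WT-only and 3 of the 7 dKO-only sites were in 1 list there too. Lists of equal length bring both counts together by construction. Within 5 kb of the genes there were 63 WT and 51 dKO sites, 14 WT-only (22.2%, beside 27.6%) and 3 dKO-only sites (5.88%, beside 14.4%) and 0 pairs past 2-fold. Within 50 kb there were 162 WT and 131 dKO sites, 46 WT-only (28.4%, beside 27.6%) and 15 dKO-only sites (11.5%, beside 14.4%). Pairing by the nearest summit, chosen after seeing the data, left 0 pairs past 2-fold. A window of 50 bp held the Tcf/Lef core at 2 WT sites (1.98%, beside 1.91% of all WT sites) in place of 6. Fewer peaks, a shorter or longer reach and a narrower window change the counts by construction. Whether a share lies below that of the whole list is not fixed in this way. The dKO-only share lay above it at 8-fold enrichment and among the 20000 strongest peaks. The WT-only share lay above it within 50 kb.

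No paired analysis was possible because the replicates were pooled before the peaks were called, and leaving out a replicate was likewise impossible. The WT pool had 1.35 times as many fragments as the dKO pool, which limits WT-only calls among weak sites. Intervals cover counting error only.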
